A study of Mus musculus with 16 samples.

Results

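The N1-acetylspermidine (N1-AcSpd) response that α6+/CD34− progenitors and α6+/CD34+ hair follicle stem cells (HFSCs) had in common was measured over all 16 libraries of the series, 8 with N1-AcSpd and 8 untreated. The libraries formed 8 matched pairs, each holding the untreated and the N1-AcSpd library of 1 mouse and 1 cell fraction. Epidermal cells of 4 C57BL/6J mice were grown for 2 weeks as HFSC organoids (3D-3C culture), and the treated cultures received N1-AcSpd for 72 h. Cells were then sorted by surface α6 integrin and CD34, and 3′ ends of their RNA were sequenced with molecular barcodes (UMIs) that allow each molecule to be counted once. Each of the 4 groups held 4 libraries, 1 from each mouse, so the 8 pairs come from only 4 animals. Titles call the untreated libraries WT, but each mouse gave both WT and N1-AcSpd libraries and the treatment entry of the WT ones is control, so WT was read as untreated. The dose is not given in the labels, and mixed organoids, not pure cultures, were the starting point of each sort.

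Library totals ran from 15480075 to 29074855 UMIs. In α6+/CD34− cells the N1-AcSpd libraries were the deeper ones, with 25202264 to 29074855 UMIs against 16179323 to 24451336 in untreated cells. In α6+/CD34+ cells the ranges overlapped, from 15480075 to 26233887 with N1-AcSpd and from 16928210 to 18329702 without. Values are therefore given as CPM, UMI counts scaled to library size, and the part of depth in any result was not tested. Sort labels held in every library: Cd34 lay between 2.88 and 3.65 CPM in α6+/CD34− libraries and between 43.4 and 64.1 CPM in α6+/CD34+ libraries. Neither sort marker passed the test for a shared N1-AcSpd effect. Cd34, which overlaps the gene model Gm16897 with near-identical counts, stood at 0.06 on the log2 scale (adjusted p = 0.55), and Itga6, encoding α6 integrin, at -0.13 (adjusted p = 0.116).

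Spermidine and spermine are small polycations that bind nucleic acids and are needed for translation and growth. Spermidine/spermine N1-acetyltransferase, encoded by Sat1, adds the acetyl group that makes N1-AcSpd, which can be exported or oxidized back to putrescine. In keratinocytes the transcription factor NRF2 (Nfe2l2) drives detoxifying enzymes such as NAD(P)H quinone reductase and glutathione S-transferases, while serum response factor (SRF) drives genes of the actin cytoskeleton.

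To ask which genes answered N1-AcSpd in both fractions, 1 treatment effect was fitted across the 8 pairs. Among the genes that rose were 18 of 32 tested NRF2 targets, 11 of 27 genes of cholesterol synthesis and uptake and 10 of 54 genes of late epidermal differentiation. Genes that fell included 11 of 22 genes of the SRF and actin list, 8 of 33 matrix genes and 6 of 22 HFSC markers. The other members of these lists did not pass. The SRF and actin list was drawn up after values had been seen, so its count is no separate support. Of 19049 genes tested, 1435 (7.53%) passed at an adjusted p under 0.05, 854 higher (4.48%) and 581 lower (3.05%) with N1-AcSpd. Most changes were small. The median log2 fold change was 0.18 among genes that rose and -0.25 among genes that fell, and 122 genes changed by more than 0.5 on the log2 scale. The sign was the same in all 8 pairs for 1116 of the called genes, and 1616 of all genes tested (8.48%) had 1 sign in 8 pairs. Estimated in each fraction apart, the effect had the same sign in both for 1428 of the 1435 genes and for 12428 of all 19049 tested (65.2%). The former count is largely set by the choice of genes, which were called on the average over the same pairs.

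**Figure D1:**
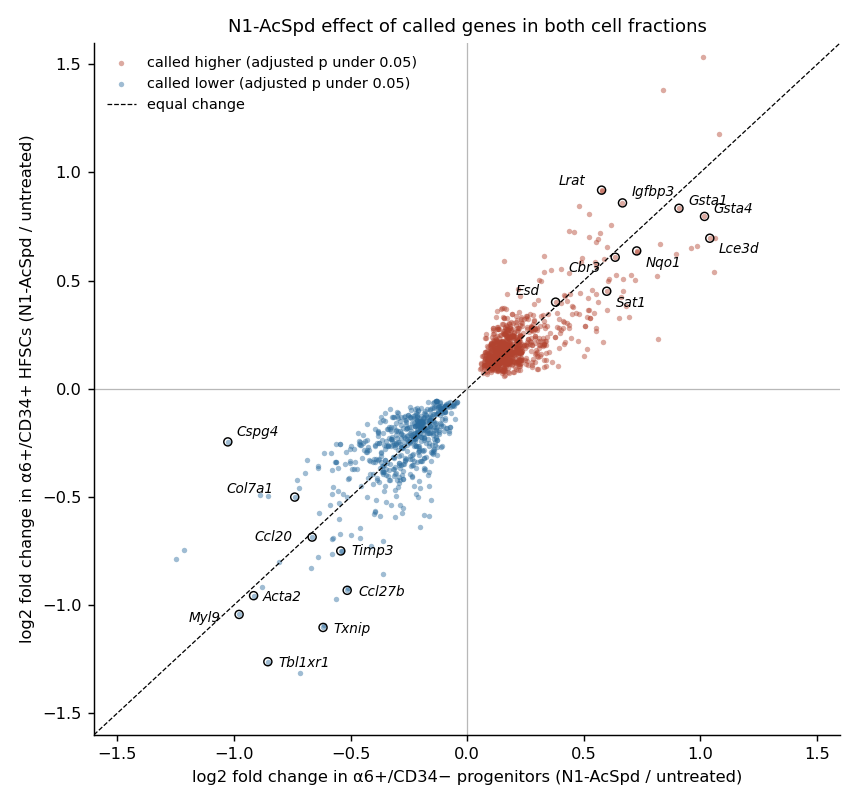
Log2 fold change with N1-AcSpd in α6+/CD34− progenitors (x axis) against α6+/CD34+ HFSCs (y axis) for the genes called over 8 pairs, red where higher and blue where lower, with equal change as a dashed line. The 1406 genes drawn lie mostly in the upper right and lower left, as their call on both fractions together favours, and the other 29 are beyond the axes at 1.6.

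The number of calls rests on counting both fractions of a mouse as separate pairs. With the fractions summed by mouse, leaving 4 pairs, edgeR called 5 genes (3829 at an unadjusted p under 0.05), and the 4 pairs of either fraction alone gave 0 calls (2998 and 2479 at an unadjusted p under 0.05). Leaving out mouse 1, 2, 3 or 4 left 104, 389, 435 and 565 calls. All 1435 calls had the same sign in the summed fit. That fit uses the same counts that chose the genes, so the agreement is largely set in advance and is no separate support.

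Detoxifying enzymes were prominent among the genes that rose. Nqo1 (ENSMUSG00000003849, chromosome 8, 107388225 to 107403206 on GRCm38, minus strand), the quinone reductase commonly read as an NRF2 target, was at 7.14, 6.52, 7.10 and 6.59 CPM in untreated α6+/CD34− libraries of mice 1 to 4 and at 10.7, 11.2, 12.4 and 11.0 CPM with N1-AcSpd. In α6+/CD34+ libraries it was at 11.4, 10.9, 13.45 and 10.5 CPM untreated and at 18.3, 15.8, 22.1 and 16.0 CPM treated. Treated and untreated libraries did not overlap in either fraction. The shared log2 fold change was 0.68 (SE 0.036, adjusted p = 0.000266), a 1.60-fold rise, and Nqo1 was called in all 12 fits that left out 1 pair or 1 mouse.

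Gsta4, a glutathione S-transferase that conjugates the lipid peroxidation product 4-hydroxynonenal (ENSMUSG00000032348, chromosome 9, 78182774 to 78209349, plus strand), was at 68.4, 84.3, 94.1 and 120.5 CPM in untreated α6+/CD34− libraries and at 173, 164, 196 and 197.5 CPM with N1-AcSpd. The levels in α6+/CD34+ libraries were 15.4, 20.8, 21.5 and 19.8 CPM untreated and 33.4, 35.8, 38.3 and 27.1 CPM treated. Again no treated library reached down to the untreated range, although the fractions themselves stood far apart in level. It rose by 0.91 (SE 0.090, adjusted p = 0.00344), which together with Lce3b was the largest increase among the genes named by rule. Gsta1, a close paralog whose counts may share reads with other alpha-class genes, rose by 0.88 (SE 0.096) and was called in 12 of 12 leave-out fits.

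Among 32 tested NRF2 targets outside the glutathione S-transferases, 18 rose and 0 fell, against 4.48% higher among all genes, and their median log2 fold change was 0.22 against -0.0061 over all genes. They covered several branches of the program. Cbr3, a carbonyl reductase, rose by 0.62 (SE 0.046) and Gsr, which regenerates reduced glutathione, by 0.58 (SE 0.077). The NADPH-producing enzymes of the pentose phosphate pathway G6pdx and Pgd rose by 0.40 (SE 0.046) and 0.25 (SE 0.027). Esd, an esterase that acts on S-formylglutathione, rose by 0.39 (SE 0.020) and had one of the smallest p-values of the comparison (adjusted p = 0.000266), with pair values between 0.33 and 0.46. Iron storage genes Fth1 and Ftl1 rose by 0.23 and 0.22. Not every target passed. Gclm, encoding the regulatory subunit of glutamate-cysteine ligase, had a log2 fold change of -0.32 (SE 0.79) and Srxn1 one of 0.11 (SE 0.056).

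Of 23 tested glutathione S-transferases, 6 rose and 1 fell (30.4% called, against 7.53% of all genes), with a median of 0.02. The increases were Gsta1, Gsta3, Gsta4, Gsto1 and the pair Gstp1 and Gstp2, whose sequences are near-identical and whose counts cannot be separated (0.21 each). Gsta3 rested on a mean of 6.31 UMIs per library. Mgst2, a microsomal family member, fell by 0.31 (SE 0.047). Lrat, which esterifies retinol and is listed among targets of the aryl hydrocarbon receptor, rose by 0.75 (SE 0.097), but its counts are near-identical to those of the antisense gene Rbm46os, and the library's reads cannot tell them apart. The only other called member of that list of 6 was Aldh1a3, a retinaldehyde dehydrogenase, at 0.23 (SE 0.030). Called members were 33.3% of that list, against 7.53% of all genes.

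**Figure D2:**
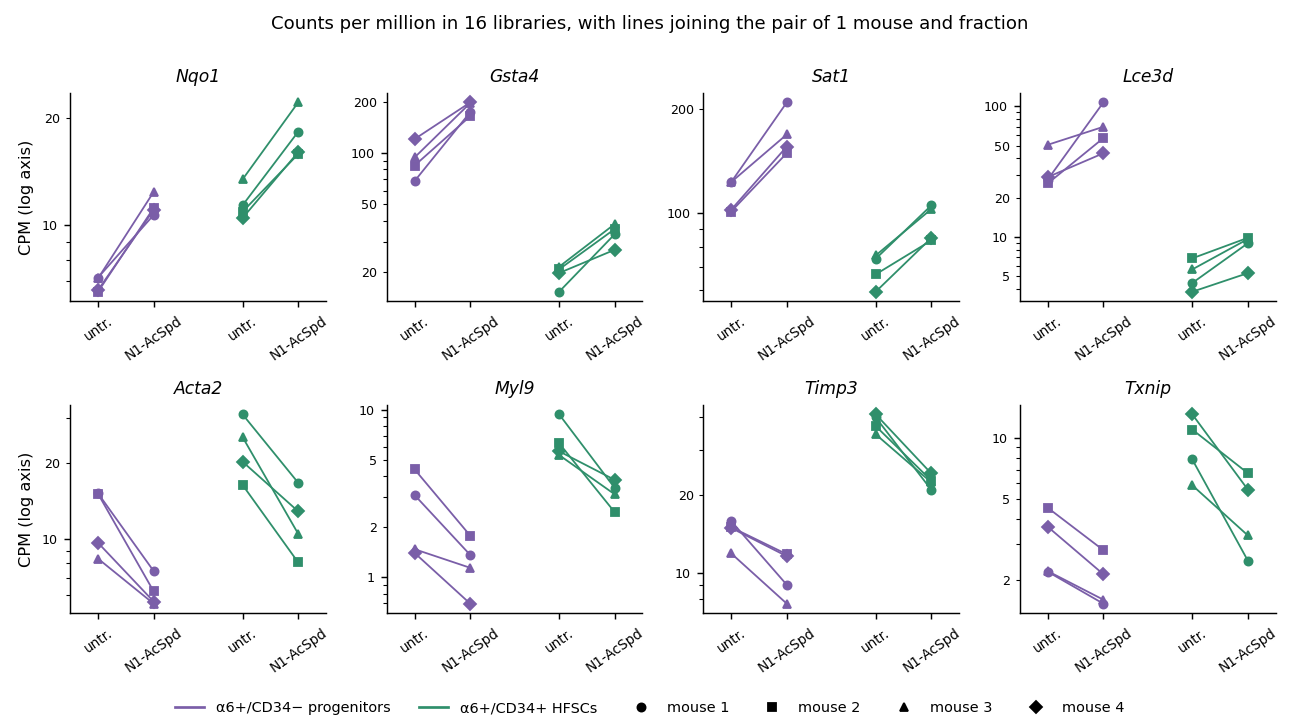
CPM (log axis) of 8 genes in every library, with lines joining the untreated (untr.) and N1-AcSpd library of 1 mouse and fraction, purple for α6+/CD34− progenitors and green for α6+/CD34+ HFSCs. All 8 lines go up for Nqo1, Gsta4, Sat1 and Lce3d and down for Acta2, Myl9, Timp3 and Txnip.

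Promoters of genes called in the shared effect were searched for the core of the antioxidant response element that NRF2 binds, TGACNNNGC on either strand, from 250 bases before to 50 bases after RefSeq starts. It was found for 109 of 573 matched genes that rose (19.0%), 64 of 368 that fell (17.4%) and 1801 of 10956 of all matched genes tested (16.4%). In the NRF2 list, drawn from genes already linked to NRF2, 9 of 27 matched genes had it (33.3%). Among glutathione S-transferases it was found for 4 of 21 matched genes (19.0%). Per promoter, 12.4% of the 32851 sequences in the table held a match. Stretches upstream of Prdx1, a peroxiredoxin that rose by 0.15 (SE 0.023), and Ugdh, which makes UDP-glucuronate and rose by 0.24 (SE 0.039), are shown as examples of where the core lies in genes that rose, with the core in capitals. They are chr4:116685431-116685509 on the plus strand and chr5:65435950-65436009 on the minus strand of GRCm38.p6, and the cores begin 133 and 132 bases before the start.
Prdx1: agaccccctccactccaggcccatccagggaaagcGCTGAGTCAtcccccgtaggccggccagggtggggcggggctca
Ugdh: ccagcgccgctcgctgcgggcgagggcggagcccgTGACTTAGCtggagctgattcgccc

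In polyamine metabolism, 1 of 4 tested genes of acetylation and oxidation rose, against 4.48% higher among all genes. That gene was Sat1, which had been picked for naming beforehand, so the count says little about the list. Sat1 (ENSMUSG00000025283, chromosome X, 155213132 to 155216449, minus strand), the acetyltransferase that makes N1-AcSpd, rose from 123, 101, 123 and 102 CPM to 209, 149, 169 and 156 CPM in α6+/CD34− libraries. It went in α6+/CD34+ libraries from 73.8, 66.5, 75.4 and 59.2 CPM to 105, 83.3, 103 and 84.7 CPM. The treated libraries lay above the untreated ones throughout. The shared log2 fold change was 0.52 (SE 0.044, adjusted p = 0.00164), called in 12 of 12 leave-out fits. The oxidases did not pass, Paox at 0.13 and Smox at 0.09, nor did Sat2 at -0.07.

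Of polyamine synthesis, 4 of 11 genes and regulators fell and 1 rose, against 3.05% lower and 4.48% higher among all genes. Amd1, the decarboxylase that supplies the aminopropyl group for spermidine, ran from 70.1 to 78.7 CPM in untreated and from 57.9 to 62.8 CPM in treated α6+/CD34− libraries, and from 68.0 to 79.9 and from 54.9 to 65.1 CPM in α6+/CD34+ libraries. It fell by 0.29 (SE 0.037, adjusted p = 0.00634), in 8 of 8 pairs. Amd2, a near-identical copy, fell by 0.27, and the 2 cannot be separated. Azin1, the antizyme inhibitor that protects ornithine decarboxylase, fell by 0.29 (SE 0.053). Odc1, ornithine decarboxylase itself, fell by 0.15 (SE 0.038, adjusted p = 0.0497), at the edge of the threshold. Srm, spermidine synthase, rose by 0.18 (SE 0.041). In the list of polyamine transport and hypusination 0 of 10 tested genes were called, and Eif5a, whose protein carries hypusine, was at 0.09 (adjusted p = 0.064).

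Of 27 tested genes of cholesterol synthesis and uptake 11 rose and 0 fell, against 4.48% higher among all genes, with a median of 0.19. Idi1, the isopentenyl diphosphate isomerase, rose by 0.31 (SE 0.028), Cyp51, the lanosterol demethylase whose gene overlaps Akap9, by 0.30 (SE 0.034), and Sqle, squalene epoxidase, by 0.29 (SE 0.038). Msmo1, which acts after Cyp51, rose by 0.24 (SE 0.025). All had 1 sign in 8 pairs. The transcription factor Srebf2 was at -0.03 and did not pass.

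**Figure D3:**
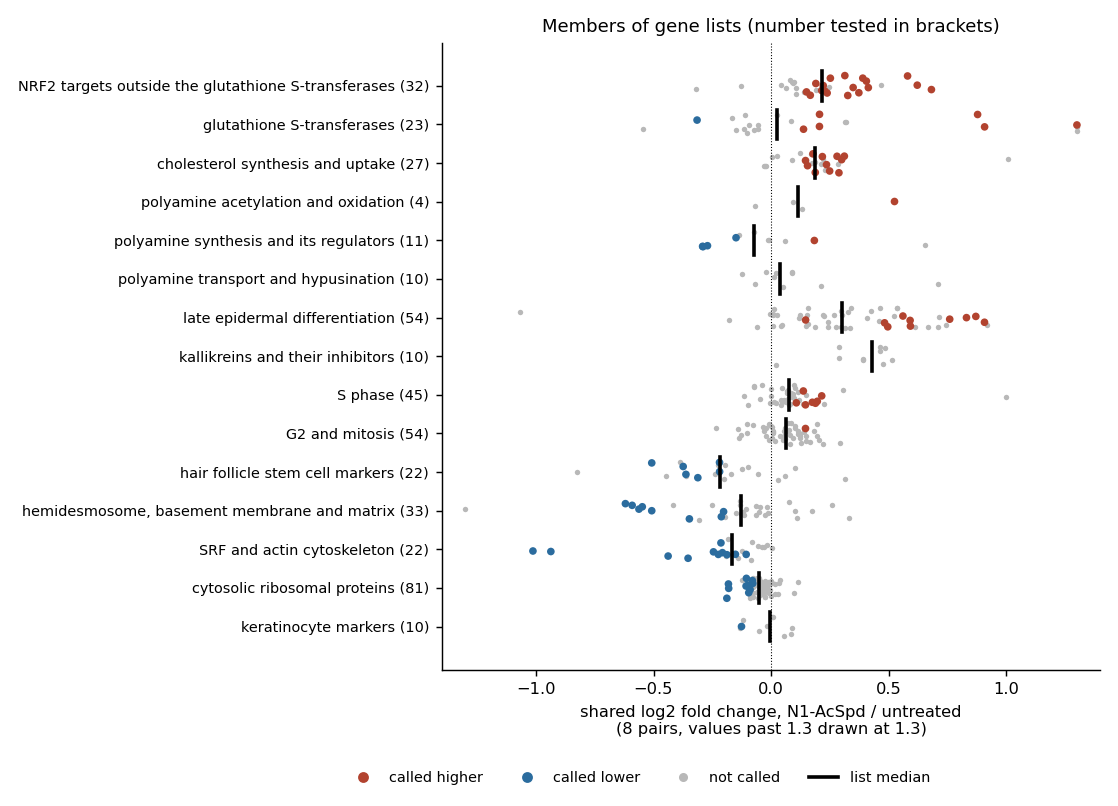
Shared log2 fold change (x axis) of the tested members of 15 gene lists, each point 1 gene, red or blue where called and grey where not, with the list median as a black bar. Medians run from -0.22 for HFSC markers to 0.43 for kallikreins, and 4 members past 1.3 are drawn at the edge. The SRF and actin list was drawn up after values had been seen.

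Of 54 tested genes of late epidermal differentiation 10 rose (18.5%, against 4.48% of all genes) and 0 fell, 50 had a positive log2 fold change, and the median was 0.30. The late cornified envelope genes Lce3b, Lce3d, Lce3e and Lce3f, which are near neighbours on chromosome 3 and resemble each other in sequence, rose by 0.76 to 0.91. Lce3d was at 27.5, 25.7, 50.8 and 28.7 CPM in untreated and at 107, 57.1, 69.7 and 43.8 CPM in treated α6+/CD34− libraries. Levels were lower in α6+/CD34+ libraries, at 4.44, 6.86, 5.64 and 3.80 CPM untreated and 8.95, 9.85, 9.64 and 5.29 CPM treated. Every pair rose, but groups overlapped, and the pair of mouse 1 in α6+/CD34− cells rose most. The 4 genes were called in 1 to 6 of 12 leave-out fits.

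Members in other steps of the program rose as well. Ivl, encoding the envelope precursor involucrin, rose by 0.59 (SE 0.097, adjusted p = 0.0121), from 31.4 ± 4.47 to 47.5 ± 9.22 CPM (SD, n = 4) in α6+/CD34− and from 9.33 ± 0.738 to 14.2 ± 1.80 CPM (SD, n = 4) in α6+/CD34+ cells. Tgm1, the crosslinking transglutaminase, rose by 0.56 (SE 0.12). The transcription factors Grhl3 and Ovol1, both acting in barrier formation, rose by 0.59 (SE 0.13) and 0.50 (SE 0.10). Desmocollin gene Dsc2, which is not on this list, rose by 0.68 (SE 0.15) but kept its call in 3 of 12 leave-out fits. The desmosomal cadherin genes on the list, Dsc1 at 0.02 (SE 0.24) and Dsg1a at 0.16 (SE 0.15), did not pass. The keratins of suprabasal cells did not pass, Krt1 at 0.12 (SE 0.25) and Krt10 at 0.0067 (SE 0.052), nor did the filaggrin gene Flg at 0.0075. In RNA from sorted populations, more cells of a type and more RNA per cell cannot be told apart.

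The 10 tested kallikreins and their inhibitors, proteases of corneocyte shedding, all had positive values with a median of 0.43, yet 0 were called. Klk8 came closest at 0.47 (SE 0.12, adjusted p = 0.0518). Their medians were 0.62 in α6+/CD34− and 0.14 in α6+/CD34+ cells, a gap that was not tested. Of 9 tested stefins and cystatins, which inhibit cysteine proteases, Stfa2 rose by 0.65 (SE 0.12), Cstb rose by 0.17 (SE 0.030) and Cst3 fell by 0.18 (SE 0.032). Called members were 33.3% of them, against 7.53% of all genes.

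Genes of the contractile actin cytoskeleton were among the largest decreases. Acta2 (ENSMUSG00000035783, chromosome 19, 34241090 to 34255590, minus strand), smooth muscle actin, was at 15.1, 15.1, 8.36 and 9.66 CPM in untreated and at 7.47, 6.21, 5.55 and 5.66 CPM in treated α6+/CD34− libraries. In α6+/CD34+ libraries it was at 31.1, 16.4, 25.3 and 20.2 CPM untreated and at 16.7, 8.08, 10.5 and 12.9 CPM treated. Groups did not overlap in α6+/CD34− cells, and in α6+/CD34+ cells 1 treated library reached into the untreated range. The log2 fold change was -0.94 (SE 0.085, adjusted p = 0.00213), or 0.523-fold of the untreated level, and it was called in 12 of 12 leave-out fits.

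Myl9, the regulatory myosin light chain, was lower still in proportion. It was at 3.10, 4.41, 1.47 and 1.40 CPM in untreated and at 1.36, 1.77, 1.14 and 0.697 CPM in treated α6+/CD34− libraries. Its values in α6+/CD34+ libraries were 9.39, 6.31, 5.37 and 5.65 CPM untreated and 3.42, 2.45, 3.13 and 3.82 CPM treated, without overlap. It fell by 1.01 (SE 0.13, adjusted p = 0.00659). Of 22 tested genes in a list of SRF and actin cytoskeleton genes, 11 fell and 0 rose, against 3.05% lower among all genes. The list was drawn up after values had been seen, so these counts are no separate support. On it 21 genes had a negative value, and the median was -0.17, against -0.0061 over all genes. Srf itself fell by 0.44 (SE 0.070), the non-muscle myosin Myh9 by 0.35 (SE 0.037), the filamin Flna by 0.21 (SE 0.034) and the actinin Actn1 by 0.22 (SE 0.041). Actb did not pass (-0.08, adjusted p = 0.0586), and Fhl2 was at 0.0042. Fascin gene Fscn1, which bundles actin and is not on that list, rose by 0.75 (SE 0.081).

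SRF binds the CArG box, and a search for it was added after these decreases were seen. It was present, in the same promoter windows and on either strand, for 16 of 368 matched genes that fell (4.35%), 11 of 573 that rose (1.92%) and 184 of 10956 of all matched genes tested (1.68%). On the actin list 9 of 19 matched genes had it (47.4%), a list drawn from genes already linked to SRF. Among glutathione S-transferases it was found for 3 of 21 matched genes (14.3%). Per promoter, 1.63% of the table held a match. The stretches below show, in capitals, the box in Srf and in 3 genes that fell with it. They lie at chr17:46556180-46556279 (minus strand), chr2:156775268-156775347 (plus strand), chr11:120348543-120348620 (minus strand) and chr10:79988509-79988583 (plus strand) of GRCm38.p6. Srf carries 2 boxes, beginning 82 and 62 bases before its start, and in Myl9, Actg1 (cytoplasmic gamma actin, -0.15) and Cnn2 (calponin 2, -0.25) the box begins 161, 90 and 56 bases before the start.
Srf: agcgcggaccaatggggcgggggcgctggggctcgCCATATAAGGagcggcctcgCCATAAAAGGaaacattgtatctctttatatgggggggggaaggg
Myl9: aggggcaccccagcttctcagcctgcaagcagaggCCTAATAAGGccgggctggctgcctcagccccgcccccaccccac
Actg1: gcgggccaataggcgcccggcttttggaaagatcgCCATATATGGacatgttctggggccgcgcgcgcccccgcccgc
Cnn2: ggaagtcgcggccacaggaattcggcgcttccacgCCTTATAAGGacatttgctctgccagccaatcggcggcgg

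Of 33 tested genes of hemidesmosomes, basement membrane and matrix, 8 fell (24.2%, against 3.05% of all genes) and 0 rose, with a median of -0.13 and 6 positive values. Col7a1, the anchoring fibril collagen, fell by 0.62 (SE 0.099), Col4a5 by 0.56 (SE 0.12), the tenascin Tnc by 0.55 (SE 0.13), the periostin Postn by 0.51 (SE 0.092) and the laminin chain Lamb1 by 0.35 (SE 0.057). Of the hemidesmosome genes, Plec, encoding plectin, fell by 0.20 (SE 0.042). Itga6 (-0.13), Itgb4 (-0.02), Col17a1 (-0.12), Dst (-0.05) and Cd151 (-0.11) did not pass. Cspg4, the proteoglycan NG2, fell by 0.59 (SE 0.15) but was called in 0 of 12 leave-out fits, and its change was -1.03 in α6+/CD34− against -0.25 in α6+/CD34+ cells. Timp3, a matrix-bound inhibitor of metalloproteinases, fell by 0.65 (SE 0.068, adjusted p = 0.00396), from 14.5 ± 1.74 to 10.1 ± 2.05 CPM (SD, n = 4) in α6+/CD34− and from 38.1 ± 3.02 to 22.7 ± 1.35 CPM (SD, n = 4) in α6+/CD34+ cells. Its counts are near-identical to those of Syn3, the gene it lies inside, so the pair counts once. Timp3 and Syn3 were also the named genes that passed with the fractions summed by mouse. Fibroblast markers moved as well in α6+/CD34+ cells, where their summed level was 6.04 to 7.97 CPM untreated and 8.46 to 10.2 CPM treated, with 2 of 10 members at 0, while in α6+/CD34− cells the ranges were 5.69 to 7.84 and 5.28 to 7.04 CPM. Their part in these results was not tested.

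Of 22 tested HFSC markers 6 fell (27.3%, against 3.05% of all genes), 0 rose and 16 did not pass, with a median of -0.22 (-0.24 in α6+/CD34− and -0.19 in α6+/CD34+ cells). Krt15, the bulge keratin, ran from 35.7 to 42.7 CPM in untreated and from 27.3 to 33.0 CPM in treated α6+/CD34− libraries. In α6+/CD34+ libraries it ran from 320 to 447 CPM untreated and from 239 to 386 CPM treated, so that here the groups overlapped. It fell by 0.37 (SE 0.072, adjusted p = 0.0198) in 8 of 8 pairs. Among transcription factors of the bulge, Nfib fell by 0.36 (SE 0.067), Runx1 by 0.31 (SE 0.048) and Sox9 by 0.22 (SE 0.046), and the vitamin D receptor Vdr fell by 0.22 (SE 0.044). Postn, which fell by 0.51 (SE 0.092), is on this list and on the matrix list and counts in both. Lgr5 at -0.82 (SE 0.75), Lhx2 at 0.31 (SE 0.18) and Cd34 did not pass.

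Secreted factors and their partners changed one by one. Igfbp3, which binds insulin-like growth factors, was at 8.39, 10.9, 13.2 and 12.2 CPM in untreated and 14.9, 17.9, 15.9 and 22.0 CPM in treated α6+/CD34− libraries, and at 3.98, 3.90, 5.04 and 4.11 CPM and 7.61, 8.08, 8.41 and 6.75 CPM in α6+/CD34+ libraries. Neither fraction showed overlap. It rose by 0.76 (SE 0.078, adjusted p = 0.00396), and it was the only 1 of 11 tested genes of the IGF list to pass (9.09%, against 7.53% of all genes). The EGF receptor ligand Areg rose by 0.42 (SE 0.044) and the ERBB ligand Nrg1 by 0.31 (SE 0.053), with the other 9 members of that list not called. This made 18.2% called, against 7.53% of all genes. Prl2c5, a proliferin, rose by 0.66 (SE 0.073), while 3 related genes with similar sequence were not called.

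Chemokines went both ways. Ccl20, which attracts CCR6-bearing cells, fell by 0.67 (SE 0.10), Ccl27a by 0.57 (SE 0.077) and Ccl27b by 0.72 (SE 0.11), the latter pair being near-identical copies whose reads can be split arbitrarily. Cxcl1 rose by 0.20 (SE 0.045) and Cxcl3 by 0.59 (SE 0.12), and the other 13 of 18 tested members did not pass. The share called was 27.8%, against 7.53% of all genes. Inhba, the activin A subunit, fell by 0.63 (SE 0.090), with near-identical counts in the overlapping model Gm48444. Of 6 tested connexins, the gap junction genes Gjb6, Gjb2 and Gja1 rose, by 0.63 (SE 0.11), 0.48 (SE 0.062) and 0.21 (SE 0.027). The lists of EGF ligands, chemokines, connexins and TXNIP relatives were drawn up after values had been seen.

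Txnip, an inhibitor of thioredoxin and of glucose uptake, fell in every pair. It was at 2.19, 4.54, 2.21 and 3.65 CPM in untreated and 1.53, 2.80, 1.60 and 2.13 CPM in treated α6+/CD34− libraries, and at 7.85, 11.0, 5.86 and 13.1 CPM and 2.49, 6.72, 3.31 and 5.58 CPM in α6+/CD34+ libraries. The ranges overlapped in both fractions because mice differed in level. Txnip fell by 0.87 (SE 0.13, adjusted p = 0.00951), with the overlapping model Gm15441 near-identical in counts. Its relative Arrdc3 fell by 0.23 (SE 0.048) and the glucose transporter Slc2a1 was at 0.11.

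**Figure D4:**
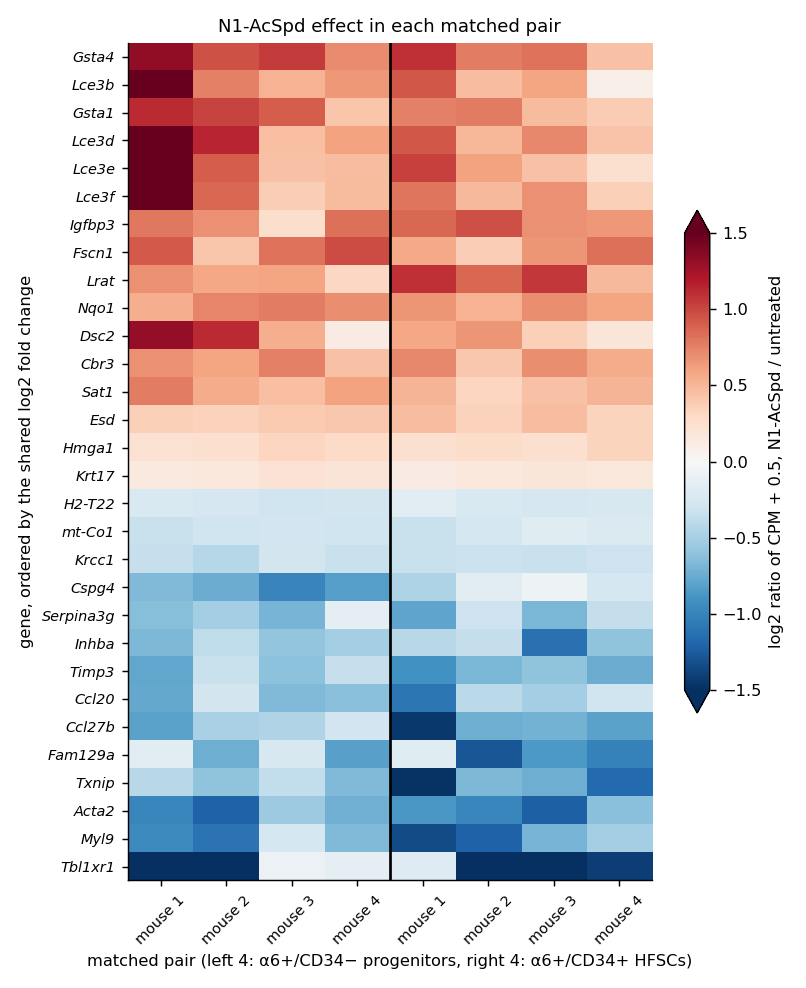
Log2 ratio of N1-AcSpd to untreated (CPM + 0.5) in each of the 8 pairs for 30 named genes, red where higher and blue where lower, with α6+/CD34− pairs left and α6+/CD34+ pairs right of the line. Every row keeps 1 colour, the Lce3 genes are darkest in mouse 1, and Tbl1xr1 is pale in 3 pairs.

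Some genes with small but very even changes had p-values as small as those of far larger changes. Krt17, a keratin of the follicle and of activated epidermis, ran from 2458 to 2739 CPM in untreated and from 2729 to 3137 CPM in treated α6+/CD34− libraries, and rose by 0.17 (SE 0.012, adjusted p = 0.00106) with pair values between 0.12 and 0.22. Hmga1, a chromatin architectural factor whose reads are also counted in the copy Hmga1b, rose by 0.27 (SE 0.020). The mitochondrial cytochrome oxidase gene mt-Co1 fell by 0.28 (SE 0.019) and the non-classical class I gene H2-T22 by 0.25 (SE 0.021). Krcc1 fell by 0.34 (SE 0.022) with counts identical to those of Smyd1, which spans it. Fam129a fell by 0.76 (SE 0.17) and Serpina3g by 0.60 (SE 0.088), the latter a member of a serpin cluster with similar sequences. Fam129a was called in 3 and Serpina3g in 10 of 12 leave-out fits.

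Among genes averaging 50 or more UMIs with 1 sign in 8 pairs, Tbl1xr1 had the largest named decrease, at -1.06 (SE 0.25, adjusted p = 0.0403), but it was called in 3 of 12 leave-out fits. It contains the gene model Gm5842, which was at 0 in 6 libraries and switched between 0 and up to 41.8 CPM. Tbl1xr1 stood at 32.8 and 46.8 CPM in the same 2 treated libraries in which Gm5842 was at 20.3 and 31.7 CPM, and at 9.97 to 16.3 CPM in the other treated libraries. The part of Gm5842 in the value of Tbl1xr1 was not tested.

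Of 45 tested S phase genes 7 rose (15.6%, against 4.48% of all genes) and 0 fell, by small amounts and with a median of 0.08. Among them were the helicase subunit Mcm4 (0.18, SE 0.028), the ribonucleotide reductase subunit Rrm2 (0.22, SE 0.043), the flap endonuclease Fen1 (0.20, SE 0.044), the cyclin Ccne2 (0.19, SE 0.043), the polymerase Pola1 (0.15, SE 0.025) and the clamp loader subunit Rfc2 (0.11, SE 0.018, overlapping Lat2). For genes of G2 and mitosis the count was 1 of 54 (1.85%), Tubb4b at 0.14 (SE 0.027), which is a tubulin not limited to mitosis. Mki67 was at -0.14 (SE 0.090) and Top2a at -0.02 (SE 0.070). The median of the mitotic list was -0.04 in α6+/CD34− and 0.17 in α6+/CD34+ cells, a gap that was not tested.

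In lists of other stress programs the share called ran from 4.35% to 14.3%, against 7.53% among all genes. ATF4 targets and interferon-stimulated genes had calls in both directions. In the ATF4 list of 28 tested genes 4 were called (14.3%), of which 2 rose (Slc7a11, also an NRF2 target, and Pck2) and 2 fell, Atf5 by 0.37 (SE 0.072) and Pycr1 by 0.25 (SE 0.059). Of 23 tested p53 targets (4.35% called) only Phlda3 rose, by 0.15 (SE 0.028). Among 15 tested interferon-stimulated genes (13.3% called) Xaf1 rose by 0.27 (SE 0.040) and Gbp2 fell by 0.43 (SE 0.10). Of 21 tested immediate early genes (9.52% called) Dusp1 and Junb rose, by 0.29 (SE 0.052) and 0.18 (SE 0.039), each with another gene overlapping it (Ergic1 and Prdx2). Cytosolic ribosomal protein genes had 10 of 81 tested lower (12.3%, against 3.05% of all genes) and 0 higher, with a median of -0.05. Rpsa fell by 0.18 (SE 0.031) and Rps20 by 0.18 (SE 0.040).

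Keratinocyte identity was high and even, with summed markers between 7197 and 8860 CPM in all libraries. Of these 10 genes only Dsp, desmoplakin, passed, at -0.13 (SE 0.031), and the list median of -0.0065 turned to 0.0008 and 0.0017 under the other scalings. Melanocyte markers summed to 28.0 to 36.1 CPM, mostly Pmel and Mitf, of which Mitf has counts near-identical to the model Gm15531, and immune markers to 9.56 to 14.6 CPM. Immune markers lay at 11.2 to 12.5 CPM in untreated and 9.56 to 10.7 CPM in treated α6+/CD34+ libraries, and their part in the results was not tested. Of the endothelial markers only Pecam1 had enough counts for a test, with a change of -0.05 on the log2 scale (adjusted p = 0.168). The other 3 in the file were too low to test. Summed endothelial markers, nearly all Pecam1, were at 1687 to 2055 CPM in every library. Whether these counts come from Pecam1 transcripts or from endothelial cells was not tested. In these 4 lists of other cell types 0 of 14 tested genes were called, against 7.53% of all genes. With so few genes tested, this count does not show that such cells were unchanged.

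Whether the response differed between the fractions was tested by the interaction of treatment and fraction. It called 3 of 19049 genes (0.0157%), all unnamed gene models that switched between 0 and a steady level from library to library (Gm13182, Gm15312 and Gm11964). None was among the 1435 genes of the shared effect. An unadjusted p under 0.05 was found for 983 genes (5.16% of those tested) and for 74 of the 1435 (5.16%). A missed threshold does not show that fractions responded alike, and intervals of the difference (α6+/CD34+ minus α6+/CD34−) give the size that remains possible. They ran from -0.25 to 0.07 for Nqo1, from -0.62 to 0.18 for Gsta4, from -0.32 to 0.03 for Sat1, from -0.46 to 0.38 for Acta2 and from -0.99 to 0.02 for Txnip (95%). For Cspg4 the interval, 0.50 to 1.06, left out 0 before adjustment. Angptl4, a lipase inhibitor, stood at 0.11 in α6+/CD34− and at -0.67 in α6+/CD34+ cells without a called difference (adjusted p = 0.165).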

How the data were processed

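The authors deposited 1 table of UMI counts per gene for 16 libraries. According to their methods and processing notes, reads were demultiplexed with FLEXBAR, read 2 was placed on mm10 with kallisto 0.45.0, BEDTools linked tags to genes, and unique UMI tags were counted in R, while FastQC 0.11.7 and DESeq2 were also used. Annotation release and use of strand are not given in the sources used here, so overlapping and near-identical genes were treated as uncertain. Libraries were pooled after reverse transcription and then processed in 1 tube. Empty cells (156050) were read as 0, every column matched a sample, and 62 of 32989 identifiers (0.116% of counts) had no GENCODE M21 name. GENCODE M21 also gave positions on GRCm38 (mm10), and promoter sequences came from RefSeq on GRCm38.p6.

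Genes averaging 5 or more UMIs per library were fitted with the edgeR 4.0.16 quasi-likelihood test in R 4.3.3 (TMM scaling, Benjamini-Hochberg adjustment over 19049 genes, threshold 0.05), with a block for each pair of 1 mouse and fraction. SE is the absolute log2 fold change over the square root of F, and it can look too small where edgeR limits p. The difference between fractions is the interaction term of the same fit. CPM are TMM-scaled, and pair ratios are of CPM + 0.5. P-values treat the 8 pairs as independent although 4 mice gave them. Pairing comes from the labels, which give 1 mouse for each replicate number. Within pairs, residuals around group means correlated at 0.0137 on average (-0.0201 to 0.0670). Effect deviations from the mean of the 8 pairs correlated at -0.133 on average between fractions of the same mouse and at -0.144 between other pairs. Subtracting that mean pushes such correlations below 0, so their sign does not measure independence. Within-group chi-square values were 26.0 to 42.9 per degree of freedom, so no library repeated another of its own group. Libraries of different groups were not compared in this way.

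Named genes were the 12 largest changes and 5 smallest p-values in each direction among called genes that averaged 50 or more UMIs and kept 1 sign in 8 pairs, with no unnamed models or pseudogenes, plus Gsta4, Sat1 and Nqo1 and up to 4 called members of each list. Other members named in the text, Gm5842, and the neighbouring gene models were chosen after their values were seen. Members and lists were chosen with earlier results of these data known, and the lists of SRF, chemokine, EGF ligand, connexin, TXNIP, mitochondrial, proteasome and respiratory chain genes, the CArG search and the setting without on/off genes (0 in 1 library and 100 or more in another) after values were seen. Alternatives were other scalings, filters and blocks, DESeq2 1.42.0, stricter thresholds and leaving out pairs or mice. In 10 simulations over 19049 genes with different seeds, 66% to 86% of genes changed by 0.5 on the log2 scale were recovered. Of those changed by 1, 80% to 94% were recovered, and 4 to 11 of all 165 to 181 calls were false. Changed genes were drawn only from those averaging 50 or more UMIs. No response shared by the fractions of 1 mouse was simulated. The figures therefore do not cover genes with fewer UMIs or dependence between pairs of 1 mouse. A few members of the lists are not reported here by name.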

Additional observations from a re-analysis of the deposited data

Results flagged for a closer look

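In 18 of 169 groups checked, 1 sample stood apart from the rest by Dixon's criterion, which chance alone meets in about 5% of groups. Several concern the late cornified envelope genes of mice 1 and 3 in α6+/CD34− cells. In mouse 1 the pair log2 ratio was 2.16 for Lce3b (others 0.08 to 0.93), 1.94 for Lce3d (others 0.43 to 1.14), 2.09 for Lce3e (others 0.24 to 1.03) and 1.86 for Lce3f (others 0.36 to 0.86). The untreated library of mouse 3 had 50.8 CPM for Lce3d (others 25.7 to 28.7), 28.8 CPM for Lce3e (others 14.8 to 17.2) and 58.2 CPM for Lce3f (others 31.5 to 32.7).

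Tbl1xr1 was at 32.8 CPM in the treated α6+/CD34− library of mouse 3 (others 9.97 to 13.5) and at 46.8 CPM in the treated α6+/CD34+ library of mouse 1 (others 13.6 to 16.3). Igfbp3 had a pair ratio of 0.26 in α6+/CD34− cells of mouse 3 (others 0.65 to 0.97), Inhba one of -1.12 in α6+/CD34+ cells of mouse 3 (others -0.68 to -0.36) and Ccl27b one of -1.45 in α6+/CD34+ cells of mouse 1 (others -0.81 to -0.29). Fam129a was at 4.99 CPM in the untreated α6+/CD34+ library of mouse 2 (others 3.70 to 3.85), and Hmga1 at 53.3 CPM in the untreated α6+/CD34− library of mouse 1 (others 61.2 to 62.5). Krcc1 and Smyd1, with identical counts, were at 22.7 CPM in the treated α6+/CD34− library of mouse 1 (others 20.8 to 21.0).

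Depth stood apart in the untreated α6+/CD34− library of mouse 2, with 16179323 UMIs (others 23079841 to 24451336), and in the treated α6+/CD34+ library of mouse 1, with 26233887 UMIs (others 15480075 to 16715068). The difference between fractions passed the interaction test for 3 gene models that were at 0 in some libraries of a group, Gm13182 (11.65), Gm15312 (-8.87) and Gm11964 (11.4 on the log2 scale, overlapping Ankrd36), and fitted values against groups at 0 are not measures of size.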

How the results depend on the processing

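The shared effect called 1435 genes with edgeR. Without the replicate block for matched pairs it called 1053, with mice as blocks 1689, with DESeq2 1814, and 1407 and 1447 under other scalings. It called 784 with no low-count filter, 259 at an adjusted p under 0.01 and 122 past 0.5 on the log2 scale. With the fractions summed by mouse 5 were called, in α6+/CD34− pairs alone 0 and in α6+/CD34+ pairs alone 0. Leaving out a pair or mouse gave 104 to 1098 calls. The count fell by over 1.5 times in every such run but those without the α6+/CD34+ pair of mouse 2 or 4, and the lowest was without mouse 1. The cause of these losses was not tested beyond the smaller number of pairs. Among 33 genes named by rule, 858 alternative values were 648 on the same side of the threshold, 210 weaker and 0 reversed. The difference between fractions called 3 genes, 0 without the replicate block (799 at an unadjusted p under 0.05), 0 with mice as blocks (981), 93 with DESeq2, 1 at an adjusted p under 0.01, 0 without on/off genes (932), and 0 to 12 on leaving out a pair or mouse, highest without the α6+/CD34− pair of mouse 3. Counting error limits genes near the filter of 5 UMIs per library.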

Other observations

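Further lists were drawn up after values had been seen. Of 13 tested mRNAs of the mitochondrial genome, 6 fell (46.2%, against 3.05% of all genes) and 0 rose, all 13 had a negative value, and the median was -0.14 (-0.20 in α6+/CD34− and -0.08 in α6+/CD34+ cells). The cytochrome oxidase genes mt-Co3 and mt-Co1 fell by 0.32 (SE 0.042) and 0.28 (SE 0.019). Nuclear copies of mitochondrial genes can share their reads. Subunits of the respiratory chain encoded in the nucleus had a median of -0.02, with 1 of 56 higher, Cyc1 at 0.12, and 1 lower, Cox7c at -0.08. Called subunits were 3.57% of them, against 7.53% of all genes.

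Proteasome subunits had 8 of 36 tested higher (22.2%, against 4.48% of all genes) and 0 lower, with a median of 0.07 and 30 positive values. Psmb10, an immunoproteasome subunit, rose by 0.17, and the ATPase subunits Psmc2 and Psmc4 rose by 0.14 and 0.11. These changes were small beside those of Nqo1 (0.68) or Gsta4 (0.91).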
